A study of Mus musculus with 10 samples.

Results

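Glutamate receptors and the proteins that anchor and assist them at the synapse were examined in the hippocampus of mice with and without neuronal overexpression of PGC-1α, a transcriptional coactivator best known for its mitochondrial target genes. The set held 36 genes, chosen by name: the subunits of the AMPA, NMDA, kainate and delta receptors, the metabotropic receptors, the auxiliary subunits of the TARP and Neto families, and the 4 membrane-associated guanylate kinase (MAGUK) scaffolds. A probe belonged to a gene when its RefSeq accession did, which gave 64 probes, of which 58 probes of 34 genes could be tested among 39142 probes of 17593 named genes. PGC-1αf/f mice carry at the Rosa26 locus a PGC-1α transgene that a floxed PGK-neo-STOP cassette keeps silent. The nPGC-1α mice carry the same allele together with Cre recombinase under the Eno2 (neuron-specific enolase) promoter. Both groups were on a C57BL/6 background, had no surgery in the experiment described here, and were given in the labels as males aged 12 weeks. Each group had 5 one-colour arrays of hippocampal RNA, each taken as 1 mouse. P-values measure the spread between these arrays.

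Glutamate drives most fast excitatory transmission in the hippocampus. AMPA receptors carry the rapid current, NMDA receptors admit calcium when release and depolarisation coincide and start long-term potentiation, kainate receptors act on both sides of the synapse, and metabotropic receptors signal through G proteins. TARPs bring AMPA receptors to the surface and slow their closing, Neto proteins do so for kainate receptors, and MAGUK scaffolds such as PSD-95 (Dlg4) hold receptors in the postsynaptic density.

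Values are levels, the log2 of a probe's processed intensity minus the log2 of its array's 75th percentile, so that 0 is that percentile and levels of different probes cannot be ranked against each other. A difference is the mean level of nPGC-1α mice minus that of PGC-1αf/f mice. Where a gene had several tested probes, the brightest stood for it. In bulk tissue, fewer cells of a type and less RNA per cell cannot be told apart. The labels call the cells neurons, but glial genes were measured too: 9 astrocyte markers had mean levels from 1.14 to 1.61 in PGC-1αf/f mice and from 1.22 to 1.34 in nPGC-1α mice. The means of 8 general neuronal markers ran from 2.89 to 3.17 and from 2.88 to 3.10.

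Several features of the arrays bear on every value below. The 75th percentile of the intensity ran from 3883 to 5080 in PGC-1αf/f and from 4223 to 5253 in nPGC-1α mice. Spots well above background made up 74.5% to 81.5% of gene spots in PGC-1αf/f mice and 67.2% to 73.4% in nPGC-1α mice. Despite the male label, the Y-linked gene Kdm5d was at −1.20 to −0.72 on 4 arrays (replicate 1 of PGC-1αf/f, and replicates 1, 3 and 5 of nPGC-1α) and at −9.81 to −8.72, not well above background, on the other 6. Replicates 1 to 4 of both groups shared a slide and replicate 5 of both groups another, and on the first slide each group had a row of its own, which cannot be told apart from the genotype. Ppargc1a itself, the overexpressed gene, was at 2.20 ± 0.08 (SD, n = 5) in PGC-1αf/f and 2.20 ± 0.11 (SD, n = 5) in nPGC-1α mice, a difference of 0.00 with an adjusted p of 0.99. Whether its probe reads the transgene is not given in the sources used here.

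No member passed an adjusted p of 0.05 (limma, Benjamini-Hochberg over all probes), against 0.00255% of all probes. At an unadjusted p of 0.05, 3 of 34 members were higher in nPGC-1α mice (Grm2, Cacng3 and Cacng5), against 3.18% of named genes, and 1 was lower (Grin2a), against 5.03%. Differences ranged from −0.33 to 0.56. Their median was 0.03, with 20 of 34 above 0, and the median over all named genes was −0.02. By role, the median was −0.03 for 3 AMPA subunits, −0.11 for 7 NMDA subunits, 0.03 for 5 kainate subunits, 0.11 for 6 metabotropic receptors, 0.22 for 8 auxiliary subunits and 0.01 for 4 scaffolds. These medians are descriptions, and no difference between the roles was tested. Over the 6 arrays with low Y-linked signal, 0 members were higher and 0 lower at an unadjusted p of 0.05, against 1.49% and 2.38% of named genes. These 6 arrays were PGC-1αf/f replicates 2 to 5 and only replicates 2 and 4 of nPGC-1α, so missing a threshold there says little. The members' median there was 0.09, and that of all named genes −0.03. The other 4 arrays hold PGC-1αf/f replicate 1 alone against 3 nPGC-1α arrays, and single genes' values over them are given with no test. There, with that lone array assumed to vary like the others, 5 members were higher and 0 lower at an unadjusted p of 0.05, against 3.03% and 5.62% of named genes, and nothing is read from these counts. The median differences over these 4 arrays were −0.11 for the members, −0.08 for all named genes and −0.13 for all probes. Over all arrays of both genotypes, the 6 TARPs had a median of 0.42, above the median of each role given above.

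**Figure D1:**
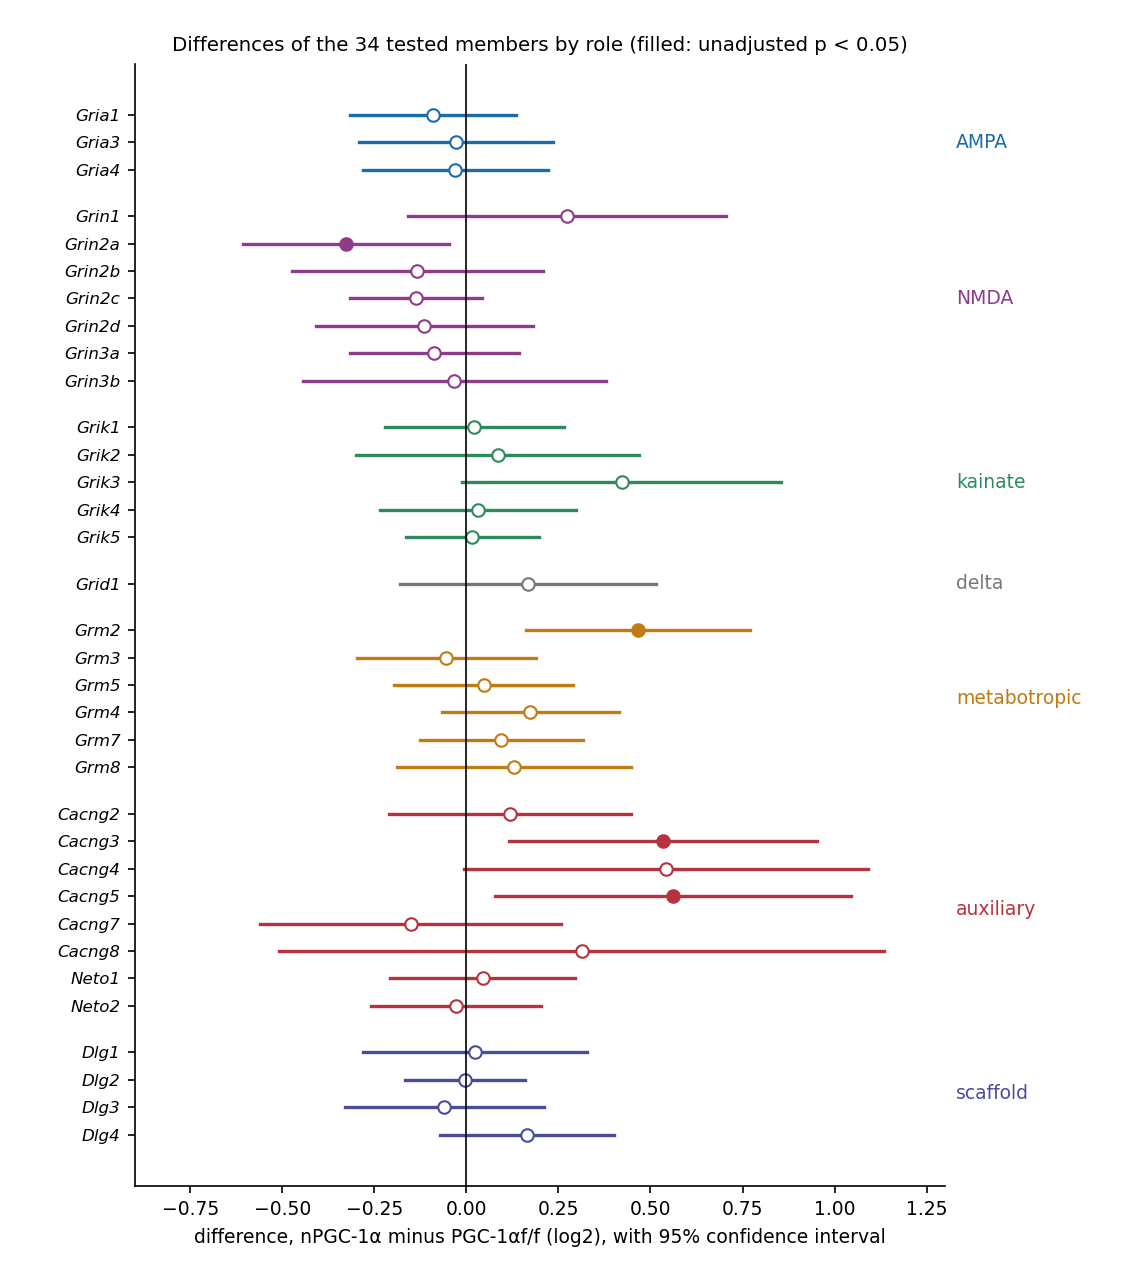
Difference of each of the 34 tested members (points, nPGC-1α minus PGC-1αf/f, log2) with its 95% confidence interval (lines), by role. Filled points have an unadjusted p under 0.05. All 3 AMPA subunits and 6 of 7 NMDA subunits lie below 0, and all 5 kainate subunits and 5 of 6 metabotropic receptors above it, most with intervals across 0.

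Of the AMPA subunits, Gria1, the pore-forming GluA1 subunit that is inserted during potentiation, had the lowest p. Its level was 3.75, 3.49, 3.50, 3.70 and 3.60 on PGC-1αf/f replicates 1 to 5 and 3.75, 3.55, 3.30, 3.55 and 3.45 on nPGC-1α replicates 1 to 5. The groups overlapped throughout, with replicate 1 the highest in both. The difference was −0.09 (SE 0.10, exact permutation p = 0.37), and its sign turned under other scalings of the arrays, with values of 0.02 to 0.03. Gria3 (−0.03) and the brightest probe of Gria4 (−0.03) also lay within their replicate spread. The other tested Gria4 probes, which are dimmer, gave 0.18 and 0.45 (exact permutation p = 0.11 and 0.029). The measured values of the second did not overlap between the groups (adjusted p = 0.29). Gria2, which encodes the subunit that keeps most AMPA receptors impermeable to calcium, could not be tested because most spots of its brighter probe were marked as outliers, on 7 of 10 arrays. With those spots kept, its level was 3.48 to 3.86 in PGC-1αf/f and 3.29 to 3.63 in nPGC-1α mice, ranges that overlap, with a difference of −0.12.

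Of the NMDA subunits, Grin2a (GluN2A, the subunit that prevails in mature synapses) was lower in nPGC-1α mice at an unadjusted p. Its level was −3.03, −2.61, −2.61, −2.84 and −2.46 on PGC-1αf/f replicates 1 to 5 and −2.88, −2.92, −3.26, −2.95 and −3.18 on nPGC-1α replicates 1 to 5. All 5 nPGC-1α arrays lay below the PGC-1αf/f mean, and PGC-1αf/f replicate 1 fell among them. The difference was −0.33 (SE 0.13, 95% interval −0.61 to −0.05, p = 0.026, adjusted p = 0.35, exact permutation p = 0.056, two-sided). The second Grin2a probe gave −0.19 (exact permutation p = 0.34). Without PGC-1αf/f replicate 2, 3 or 5 or nPGC-1α replicate 3 or 5, one at a time, the difference of the first probe was −0.27 to −0.30 and missed an unadjusted p of 0.05. It was −0.30 (adjusted p = 0.96) over the 6 arrays with low Y-linked signal, which missed it as well, and −0.08 over the other 4, with 1 PGC-1αf/f array.

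Grin1, the obligatory subunit of every NMDA receptor, was the only NMDA subunit with a difference above 0. Its brighter probe gave 0.27 (SE 0.20, exact permutation p = 0.26). On the PGC-1αf/f arrays it spread from 0.39 on replicate 2 and 0.49 on replicate 1 to 1.56 on replicate 5, while the nPGC-1α arrays lay between 1.08 and 1.29. A second, dimmer probe gave 0.79 (adjusted p = 0.28, exact permutation p = 0.024), with the same PGC-1αf/f replicates 1 and 2 lowest at −2.19 and −2.25. For both probes the nPGC-1α arrays were close together and the PGC-1αf/f arrays far apart. The other NMDA subunits had differences of −0.14 to −0.03: Grin2b, typical of young and extrasynaptic receptors, −0.13, Grin2c −0.14, Grin2d −0.11, and the GluN3 subunits Grin3a −0.09 and Grin3b −0.03.

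Of the kainate receptor subunits, Grik3 (GluK3) was the member with the lowest p, although it missed 0.05. Its level was −1.26, −0.42, −0.32 and −0.29 on PGC-1αf/f replicates 2 to 5 (the spot of replicate 1 was an outlier) and 0.06, −0.27, −0.17, −0.28 and −0.09 on nPGC-1α replicates 1 to 5. The groups did not overlap, but the nearest values, −0.29 and −0.28, almost touched. The difference was 0.42 (SE 0.19, p = 0.056, adjusted p = 0.43, exact permutation p = 0.016). Without PGC-1αf/f replicate 2 it was 0.19, and without replicate 4 or 5 of that group it was 0.51 and 0.52 and passed an unadjusted p of 0.05. Grik1 (0.02), Grik2 (0.09), Grik4 (0.03) and Grik5 (0.02) differed by less than their replicate spread.

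The kainate subunits had probes that ran in opposite directions. A dim Grik2 probe, well above background on all 5 PGC-1αf/f arrays and on none of the nPGC-1α arrays, was at −6.08 to −5.39 in PGC-1αf/f and at −7.33 to −6.29 in nPGC-1α mice. It has only a bound, at least 1.37-fold lower (adjusted p = 0.19 for the fitted difference), against 0.09 for the brightest probe. For Grik1, one further probe gave 0.30 (exact permutation p = 0.040). Another, above background on 3 of the nPGC-1α arrays, gave −0.49 (exact permutation p = 0.040). This last probe and the dim Grik2 probe were tested only because they were above background on every PGC-1αf/f array. That is the group where they are high, so their p-values and the bound for Grik2 are no evidence of a difference.

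Among metabotropic receptors, Grm2 (mGluR2, a presynaptic autoreceptor that restrains glutamate release, abundant in the dentate gyrus) was the member with the smallest p and the only one, of 27 members measured on all 10 arrays, whose groups did not overlap. Among all named genes with 10 values, 2.08% had groups that did not overlap. Its level was 0.18, 0.23, 0.76, 0.74 and 0.61 on PGC-1αf/f replicates 1 to 5 and 1.11, 0.87, 1.14, 0.80 and 0.92 on nPGC-1α replicates 1 to 5. PGC-1αf/f replicates 1 and 2 were far below the rest, and all 5 nPGC-1α arrays lay above all PGC-1αf/f arrays. The difference was 0.47 (SE 0.14, 95% interval 0.16 to 0.77, p = 0.0062, adjusted p = 0.24), and the exact permutation p of 0.0079 is the smallest that 5 against 5 arrays can give. It was 0.25 (adjusted p = 0.96, past no threshold) over the 6 arrays with low Y-linked signal and 0.88 over the other 4, where PGC-1αf/f replicate 1, its lowest array, stands alone for its group. Grm4 (0.17), Grm7 (0.10), Grm8 (0.13), the other group II receptor Grm3 (−0.05), and Grm5 (0.05), the group I receptor of the set, did not pass the test. Grm6, the retinal ON-bipolar receptor, was not tested, being well above background on only 5 of 10 arrays.

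The promoter of Cacng5, one of the members past the unadjusted threshold in the upward direction, is printed as a window of 300 bases, 250 before and 50 after the start, from RefSeq (GRCm38.p6). The capitals mark matches on either strand to GGGCGG (SP1), GCGC followed by any base and TGCGC (NRF1), AAGGTCA (ERR) and TGACGTCA (CRE). NRF1 and ERR factors are partners of PGC-1α, and the matches are descriptions of letters. Windows were given for 25 of the 36 members. Of their 38 windows, 44.7% held SP1 letters (35.7% of all 32851 windows), 7.89% NRF1 letters (4.60%), 5.26% ERR letters (4.72%) and 0 CRE letters (1.79%). The median GC content was 60.3% in the members' windows and 52.7% in all. The first Cacng5 window at chr11:107915006-107915305 on the minus strand holds 2 SP1 matches. The second Cacng5 window, at chr11:107911313-107911612, holds 0 matches and is not printed.
Cacng5: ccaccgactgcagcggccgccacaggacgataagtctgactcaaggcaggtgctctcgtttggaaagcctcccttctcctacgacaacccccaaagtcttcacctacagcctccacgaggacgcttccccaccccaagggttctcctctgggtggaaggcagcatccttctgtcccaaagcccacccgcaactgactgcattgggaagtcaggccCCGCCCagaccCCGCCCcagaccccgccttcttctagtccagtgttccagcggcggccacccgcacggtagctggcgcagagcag

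The TARPs Cacng3 and Cacng5 were higher in nPGC-1α mice at an unadjusted p. Cacng3 (γ-3, which traffics AMPA receptors) was at −1.10, −1.27, −0.25, −0.40 and −0.52 on PGC-1αf/f replicates 1 to 5 and at −0.13, −0.23, 0.01, −0.26 and −0.26 on nPGC-1α replicates 1 to 5. PGC-1αf/f replicates 1 and 2 were again the lowest, as for Grm2, and replicate 3 overlapped the nPGC-1α arrays. The difference was 0.53 (SE 0.19, p = 0.017, adjusted p = 0.31, exact permutation p = 0.024). It was 0.36 (adjusted p = 0.96) over the 6 arrays with low Y-linked signal and 0.97 over the other 4, again with PGC-1αf/f replicate 1 alone. It missed an unadjusted p of 0.05 over those 6 arrays and with array weights, at 0.35 (adjusted p = 0.49).

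Cacng5 (γ-5, which changes receptor gating) was at −3.07, −2.09, −1.95, −1.88 and −1.92 on PGC-1αf/f replicates 1 to 5 and at −1.75, −1.94, −1.45, −1.49 and −1.48 on nPGC-1α replicates 1 to 5. The PGC-1αf/f replicate 1 stood far below, and nPGC-1α replicate 2 overlapped the rest of the PGC-1αf/f group. The difference of 0.56 (SE 0.22, p = 0.027, adjusted p = 0.35, exact permutation p = 0.024) became 0.34 without PGC-1αf/f replicate 1. It missed an unadjusted p of 0.05 without nPGC-1α replicate 3, 4 or 5, with values of 0.52 to 0.53. Over the 6 arrays with low Y-linked signal it was 0.25 (adjusted p = 0.96), which missed it too, and 1.51 over the other 4, where the low replicate 1 is the whole PGC-1αf/f group.

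Of the other auxiliary subunits, Cacng4 gave 0.54 (SE 0.25, exact permutation p = 0.071), Cacng8, the γ-8 subunit concentrated in the hippocampus, 0.31 (SE 0.37), Cacng2, stargazin, 0.12, and Cacng7 −0.15. The Cacng8 value followed PGC-1αf/f replicate 5, at −3.34 where its other replicates lay between −1.53 and −1.13. Cacng4 was also lowest on that array, at −5.60. The kainate auxiliary subunits Neto1 (0.04) and Neto2 (−0.03) differed by less than their spread.

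**Figure D2:**
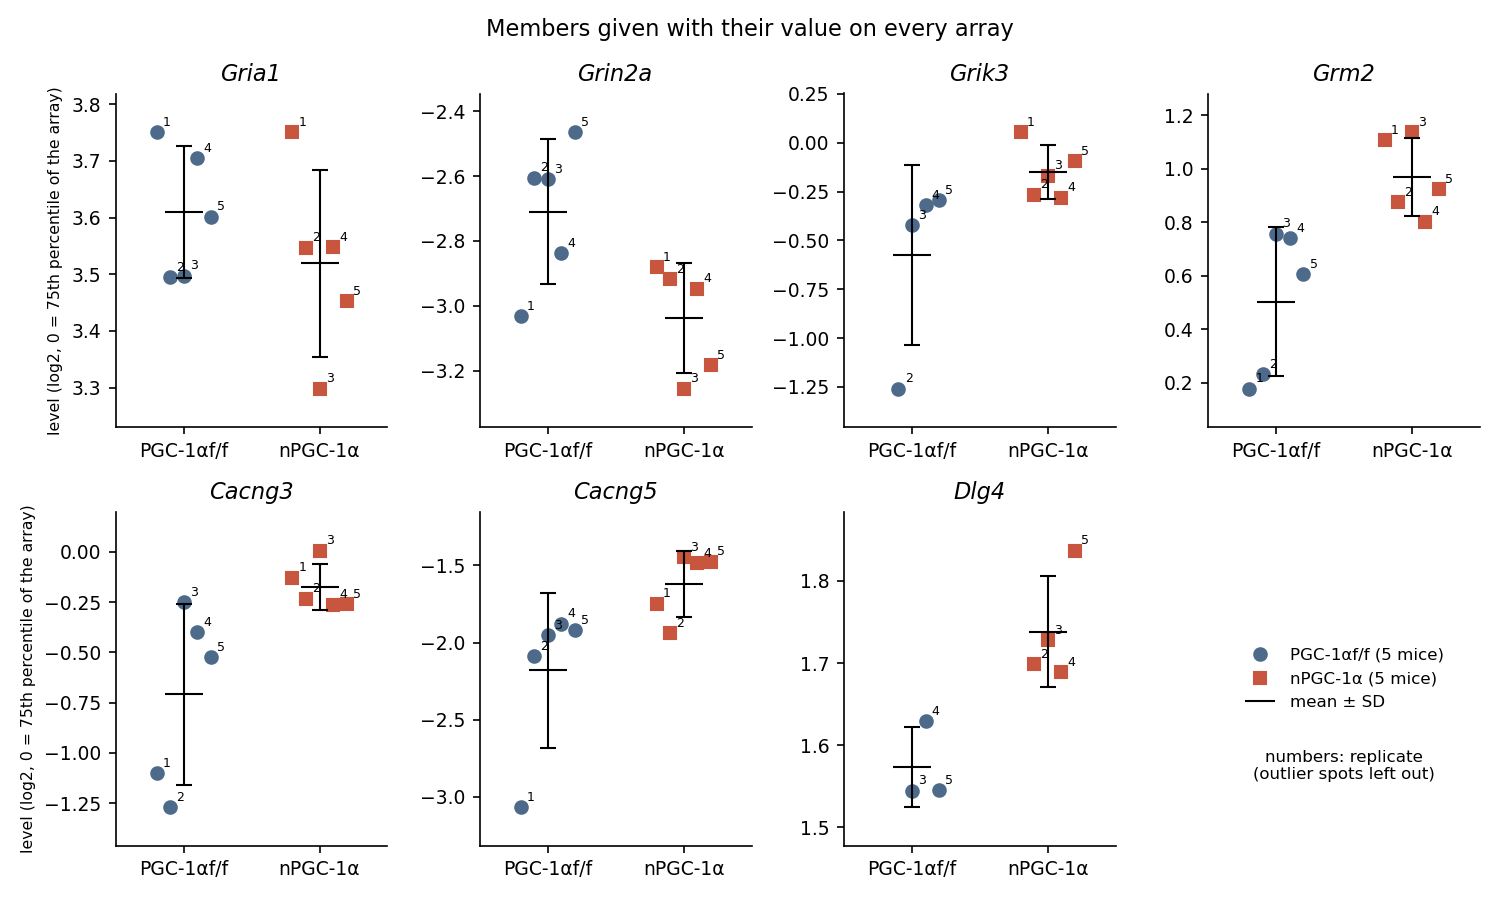
Level on each array (y axis, log2, with 0 the array's 75th percentile, a scale of its own in each panel) of the 7 members given with all their values. Circles are PGC-1αf/f and squares nPGC-1α arrays, with the replicate number, and bars are mean ± SD. For Grm2 and Cacng3 the PGC-1αf/f replicates 1 and 2 are the lowest of the 10 arrays.

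Of the MAGUK scaffolds, Dlg4 (PSD-95) had the lowest p. Its brightest probe was measured on 3 PGC-1αf/f arrays, at 1.54, 1.63 and 1.55 on replicates 3 to 5, and on 4 nPGC-1α arrays, at 1.70, 1.73, 1.69 and 1.84 on replicates 2 to 5, the rest being outlier spots. The measured values did not overlap, and the difference was 0.17 (SE 0.10, p = 0.14, exact permutation p = 0.057). With the outlier spots kept it was 0.08 (adjusted p = 0.74). The PGC-1αf/f mean then moved from 1.57 to 1.62 and the nPGC-1α mean from 1.74 to 1.69. The lack of overlap thus holds only for the spots left in. Without PGC-1αf/f replicate 3, 4 or 5, that probe had too few values and a dimmer one stood for the gene, with differences of 0.54 to 0.76 past an unadjusted p of 0.05. The 2 dimmer Dlg4 probes, both well above background on all 10 arrays, gave 0.66 (adjusted p = 0.19) and 0.77 (adjusted p = 0.37). The first was at −2.52, −2.46, −1.98, −1.91 and −2.79 on PGC-1αf/f replicates 1 to 5 and at −1.38, −1.73, −1.78, −1.73 and −1.77 on nPGC-1α replicates 1 to 5, without overlap. PGC-1αf/f replicates 1, 2 and 5 were the low arrays for both dimmer probes. Of the other scaffolds, Dlg1 (SAP97, 0.02), Dlg2 (PSD-93, 0.00) and Dlg3 (SAP102, −0.06) did not pass the test. A second Dlg2 probe gave 0.65 (exact permutation p = 0.048). A dim Dlg1 probe, above background on 2 of 5 nPGC-1α arrays, gave −0.67 (exact permutation p = 0.063). The Dlg1 probe was tested only because it was above background on every PGC-1αf/f array, so its p-value is no evidence of a difference.

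The Dlg4 window that held NRF1 letters lies at chr11:70023732-70024031 on the plus strand (GRCm38.p6). The NRF1 match shares a base with 1 of its 2 SP1 matches, and the capitals mark both motifs. It is shown because NRF1 is a partner of PGC-1α, and Gria2 and Neto2 were the other members with NRF1 letters. The other Dlg4 windows, at chr11:70016953-70017252 and chr11:70018355-70018654, held 0 matches and are not printed.
Dlg4: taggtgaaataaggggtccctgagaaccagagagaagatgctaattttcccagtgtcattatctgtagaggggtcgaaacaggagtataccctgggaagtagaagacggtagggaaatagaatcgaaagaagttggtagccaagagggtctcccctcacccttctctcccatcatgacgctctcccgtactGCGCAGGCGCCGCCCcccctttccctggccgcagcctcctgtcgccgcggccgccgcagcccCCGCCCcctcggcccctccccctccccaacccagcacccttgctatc

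**Figure D3:**
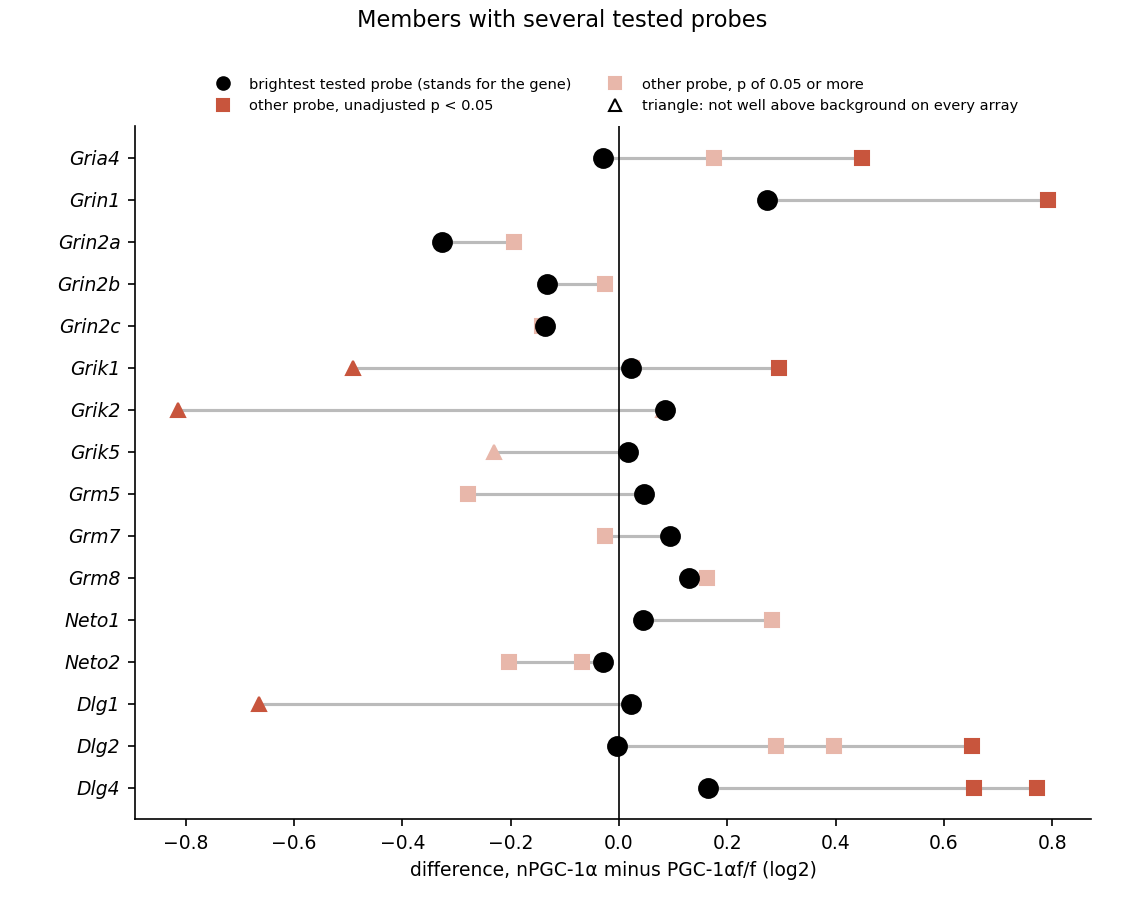
Difference (x axis, log2, nPGC-1α minus PGC-1αf/f) of every tested probe of the 16 members with several tested probes. Circles are the brightest probe, squares other probes and triangles probes not well above background on every array. Probes of 8 genes lie on both sides of 0, and the 3 probes that are lower at an unadjusted p of 0.05 and do not stand for their gene are triangles.

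Over the 24 tested probes that did not stand for their gene, 6 were higher (3.39% of all probes) and 3 lower (8.52% of all probes) at an unadjusted p of 0.05. All 3 lower probes, those of Grik1, Grik2 and Dlg1, missed background on some nPGC-1α arrays. They were tested only because they were above background throughout PGC-1αf/f mice, so nothing is read from their count. The 6 higher probes, those of Gria4 (0.45), Grin1, Grik1, Dlg2 and 2 of Dlg4, were above background on all 10 arrays. For the Grin1 and Dlg2 probes and the 2 of Dlg4, replicates 1, 2 and 5 were the lowest PGC-1αf/f arrays. The 6 are thus not separate observations. Probes of 8 of the 16 genes with several ran one way, 4 genes upward (Dlg4, Grin1, Grm8 and Neto1) and 4 downward (Grin2a, Grin2b, Grin2c and Neto2). The noise of the background ran from 5.16 to 8.98 intensity units in PGC-1αf/f and from 10.7 to 20.9 in nPGC-1α mice, and the part it plays in the dim probes was not tested.

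The PGC-1αf/f arrays were the more variable for these genes. Of 27 members with all 10 values, 24 had a larger SD in PGC-1αf/f than in nPGC-1α mice (88.9%, against 64.8% of 14891 named genes), with median SDs of 0.22 and 0.14. PGC-1αf/f replicate 1 was the highest array for 11 of these 27 members (23.6% of all named genes) and replicate 2 the lowest for 8 (12.6% of all named genes). The median deviation of replicate 2 from the gene means was below 0 in every role, from −0.01 for the scaffolds to −0.23 for the kainate and auxiliary members and −0.62 for Grid1. Replicate 1 was above the gene means for the AMPA, NMDA, kainate and metabotropic members (0.21, 0.16, 0.13 and 0.11) and the scaffolds (0.09), and below them for the auxiliary members (−0.11) and Grid1 (−0.22).

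**Figure D4:**
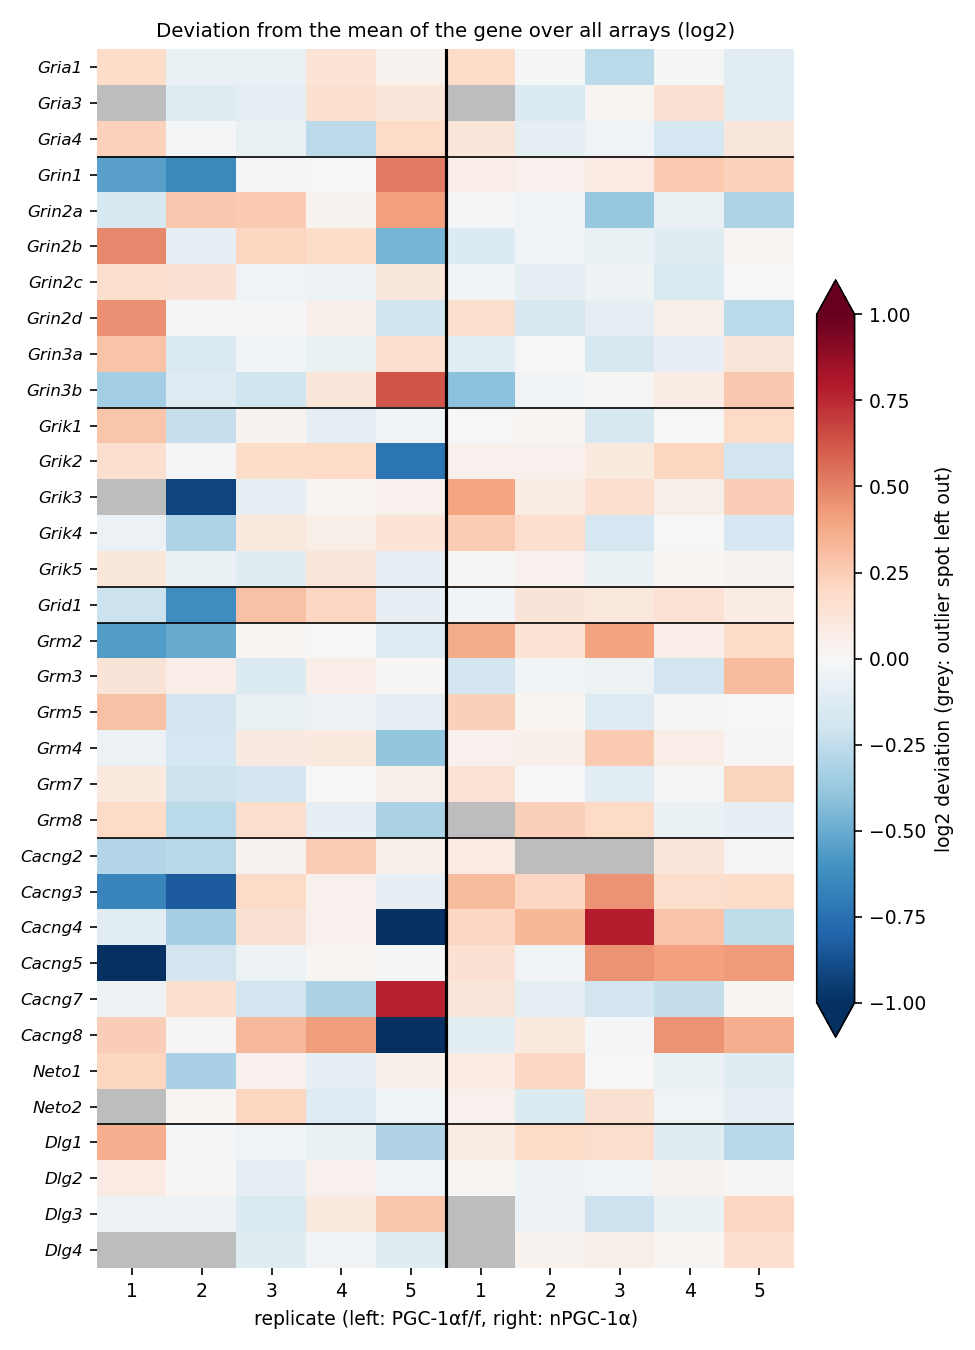
Deviation of each array (columns) from the mean of the gene (rows, by role) over all arrays, in log2 from −1 (blue) to 1 (red), with outlier spots in grey. The strongest blue lies on PGC-1αf/f replicates 1, 2 and 5, in members such as Grik3, Cacng3, Cacng4, Cacng5 and Cacng8.

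On the second slide, which held 1 array of each group, nPGC-1α minus PGC-1αf/f was 0.32 for Grm2, 0.26 for Cacng3, 0.44 for Cacng5, 0.20 for Grik3, 0.29 for Dlg4, −0.15 for Gria1 and −0.72 for Grin2a. This pair is part of the differences above, so that its signs are no separate evidence. On the first slide alone, Grm2 gave 0.50 (adjusted p = 0.31), Cacng3 0.60 (adjusted p = 0.36), Cacng5 0.59 (adjusted p = 0.41) and Grin2a −0.23 (adjusted p = 0.51). Of these, Grin2a missed an unadjusted p of 0.05.

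Other genes of glutamatergic signalling were read from lists, whose counts stand against the 3.18% of named genes that were higher and the 5.03% that were lower at an unadjusted p of 0.05. Of 10 further AMPA receptor auxiliary proteins, 3 were higher at an unadjusted p of 0.05 and 0 lower, with a list median of −0.01. Gsg1l, which slows the recovery of AMPA receptors, was −0.55 to −0.20 in PGC-1αf/f and −0.05 to 0.41 in nPGC-1α mice, without overlap (0.54, adjusted p = 0.11), and Shisa9 (CKAMP44, which promotes desensitisation) gave 0.34 (adjusted p = 0.23). Shisa8, of the same family, gave 0.68 (adjusted p = 0.39). Of 22 other postsynaptic scaffolds and trafficking proteins, 1 was higher and 0 lower: Epb41l1, which links GluA1 to actin, with 0.63 (adjusted p = 0.28). Of 13 postsynaptic kinases and phosphatases, 0 passed in either direction. Of 15 secreted and transsynaptic organisers, 3 were higher and 0 lower, with a median of 0.08. These were Cbln4 (1.10, adjusted p = 0.20) and Cbln1 (0.95, adjusted p = 0.28), cerebellins that bridge neurexins to delta receptors and other partners, and the secreted Olfm2 (0.71, adjusted p = 0.26). Of 16 genes of glutamate transport and metabolism, 1 was lower, Slc17a8 (VGLUT3), with −0.37 (adjusted p = 0.33). Slc17a8 was above background on 6 of 10 arrays. It was thus tested through 1 group only, and nothing is read from its p-value.

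**Figure D5:**
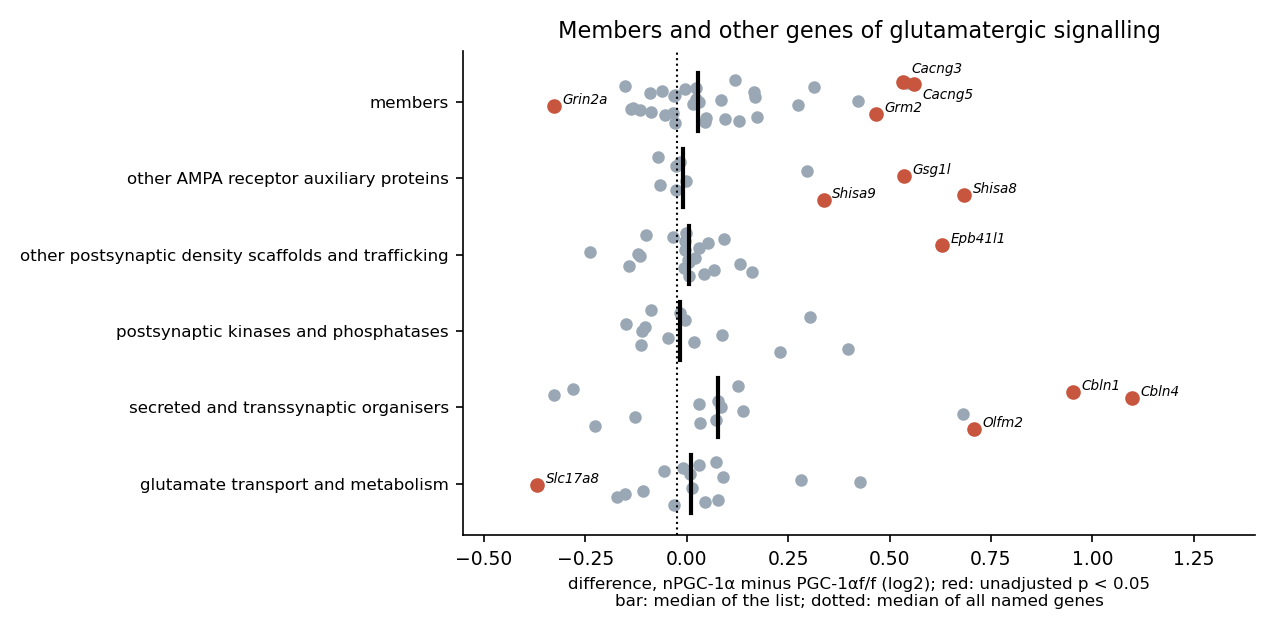
Difference (x axis, log2, nPGC-1α minus PGC-1αf/f) of each tested member and of each tested gene in 5 further lists (rows). Red points have an unadjusted p under 0.05, bars are list medians and the dotted line is the median of all named genes, at −0.02. List medians lie between −0.02 and 0.08, with the higher genes at the right.

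Lists of cell type markers were read beside these values. The median difference was −0.05 over 8 general neuronal markers and 0.07 over 8 excitatory neuron markers. It was 0.08 over 8 dentate granule cell markers, with mean levels from 0.04 to 0.48 in PGC-1αf/f and from 0.28 to 0.60 in nPGC-1α mice. Larger shifts were found for 10 oligodendrocyte markers (0.29, 9 above 0, 0 past an unadjusted p of 0.05) and 7 endothelial markers (0.31, with Kdr higher at an unadjusted p of 0.05). Medians below 0 were found for 6 medial habenula markers (−0.26, 1 above 0), 8 choroid plexus markers (−0.15), 7 microglia markers (−0.14, with Tmem119 lower at an unadjusted p of 0.05) and 9 astrocyte markers (−0.11, 1 above 0). Choroid plexus markers reached 0.75 on nPGC-1α replicate 3 and medial habenula markers −1.92 on PGC-1αf/f replicate 2, the highest array means of these lists. The part of these markers in the differences above was not tested.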

How the data were processed

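Hippocampal RNA of 10 mice was hybridised to Agilent 1-colour arrays. The deposited scanner files hold processed intensities, which the authors' Feature Extraction software (11.5.1.1 per the file headers) had corrected for background. A deposited table holds the log2 values the authors made for 41606 probes and served as an alternative. Control and outlier spots were left out, spots of a probe averaged, and the log2 75th percentile of each array (over all gene spots) subtracted. Of 56605 probes, 59.6% were named by accession through RefSeq (GRCm38.p6), and no coordinates of probes are given because the arrays were designed on another build. A probe was tested where it rose well above background throughout 1 group or both and had 3 or more values per group. The test was limma 3.58.1 in R 4.3.3 (lmFit, eBayes, two-sided, no covariates), after a check on simulated data. Python 3.11.15, pandas 2.3.3 and, for exact permutation tests, scipy 1.17.1 were used. Members given with all values had an unadjusted p under 0.05, groups without overlap, or the lowest p of their role, and up to 3 genes per further list were named. Of the further genes and promoter sequences, some items are not reported here. The members and lists were chosen with earlier results of these data known. Alternatives were other scalings, filters, blocks, weights and tests, each array left out, and, chosen after seeing the data, the arrays split by Y-linked signal. The normexp alternative used median pixel intensities in place of the planned means. Arrays have no counting error, and their number limits the precision.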

Additional observations from a re-analysis of the deposited data

Results flagged for a closer look

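Of 66 groups of values examined, 6 held an array whose gap to its neighbour was large for the range of its group, where chance flags about 1 in 20 groups, or 3.3. On PGC-1αf/f replicate 5, Grik2 was at −1.97 and Cacng8 at −3.34, with the nearest other array at −1.26 and −1.53. On PGC-1αf/f replicate 2, Grik3 was at −1.26, with the nearest at −0.42. On PGC-1αf/f replicate 1, Cacng5 was at −3.07, with the nearest at −2.09, and Grm5 at 2.87, with the nearest at 2.52. On nPGC-1α replicate 3, Grm4 was at −1.61, with the nearest at −1.81. The PGC-1αf/f group held 5 of the 6 flags.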

How the results depend on the processing

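The number of members past an adjusted p of 0.05 was 0 in all 26 alternatives. The count of higher members was 3 with the settings used above. It was 6 with normexp and quantile normalisation, 6 on slide 1 only and 5 with the authors' log2 values. It was 5 with a trended robust variance and 0 on the 6 arrays with low Y-linked signal. It was 2 to 6 without single arrays (5 without PGC-1αf/f replicate 3 and 6 without replicate 4 or 5). The count of lower members was 1 with the settings used above. It was 0 with normexp and quantile normalisation, the replicate block, the Y-linked class as a covariate and an exact Mann-Whitney test. The 6 arrays with low Y-linked signal also gave 0. So did the mean of a gene's probes, for which the median p of the probes was read and no test was run. Without single arrays the count was 0 to 1 (0 without PGC-1αf/f replicate 2 or 3 or nPGC-1α replicate 3 or 5). The members' median difference was −0.11 on the 4 arrays with high Y-linked signal, where the PGC-1αf/f group is 1 array assumed to vary like the others and the median of all probes was −0.13, and 0.00 to 0.08 without single arrays. The difference of Gria1 turned to 0.0262 with quantile normalisation, 0.0286 with normexp and 0.0203 with the authors' values. The cause was not tested. Leaving aside the 4 arrays with high Y-linked signal, Grm2 missed an unadjusted p of 0.05 only on the 6 with low signal. Cacng3 missed it there and with array weights, and Cacng5 there and without nPGC-1α replicate 3, 4 or 5. For these genes, with 1 probe each, the mean of a gene's probes only repeats the settings used above. Grin2a passed in 13 alternatives and Grik3, also with 1 probe, in 7 of 25. The brightest Dlg4 probe passed in none. Dlg4 passed only where a dimmer probe replaced it or the median p of its probes was read. The labels do not say that replicate numbers pair the arrays. On the first slide, though, arrays with the same number (1 to 4) shared a column, while the replicate 5 arrays did not. Correlations of deviations between same-numbered arrays were all above 0, from 0.08 for replicate 2 to 0.36 for replicate 5, and were the highest for replicates 1, 2 and 5 but not for 3 and 4. The part of the column in these correlations was not tested. With a replicate block, the Grin2a difference missed the threshold (p of 0.059) and Grm2, Cacng3 and Cacng5 kept p values of 0.011, 0.016 and 0.014. Without a filter on dim probes, 4619 of 54980 probes passed the adjusted threshold, none of them the brightest probe of a member. Dim probes, Gria2 and Grm6 limit what can be said here.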
